A study of Mus musculus with 6 samples.

Results

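The factors that build ribosomes were examined in the epithelial layer of the cornea from wild type mice and mice with Rela deleted. Rela is the gene for p65, a DNA-binding subunit of NF-κB. Members were the genes whose deposited annotation carries the process term rRNA processing or ribosome biogenesis. Genes whose symbols begin with Rpl, Rps, Mrpl or Mrps, as those of ribosomal proteins do, were left out. The rule took 187 of the 17866 genes in the table, of which 136 carried the term rRNA processing, 94 the term ribosome biogenesis and 43 both. By textbook role, 145 members belonged to one of 12 groups of assembly factors and 42 to none. Those 42 included Kif21b, which encodes a kinesin motor, and Efna1, which encodes an ephrin ligand. They also included copies of ribosomal proteins and the chromatin remodeller gene Chd3.

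The epithelial layer of the cornea was sequenced in bulk from C57BL/6 mice at 6 months of age, in 3 libraries labelled wild type (WT) and 3 labelled Rela-/- (KO). According to the study, the KO mice carried Krt14-Cre and a floxed Rela allele, so that Rela was removed from cells in which the Krt14 promoter had been active, and other cells of the sample kept it. The labels do not give the Cre or floxed alleles of the WT mice. The study reports that the central corneal epithelium of KO mice is lost with age. At the age sampled, it describes a thick, overgrowing epithelium with epidermal features in its place. Besides epidermal genes, the study names genes of protein synthesis and the cell cycle as enriched in the KO samples. The WT and KO libraries thus differ in the state of the tissue as well as in genotype. Rela itself had 85.7, 85.8 and 87.8 CPM (counts scaled to a common library size with TMM factors) in WT and 16.1, 11.2 and 15.6 in KO. The KO mean was 16.5% of the WT mean (adjusted p = 2.74e-06 and log2 fold change -2.60 with an SE of 0.141 by the edgeR quasi-likelihood test). Libraries held 20158404 to 20880347 estimated counts, and 3 counts corresponded to 0.137 to 0.152 CPM. All 6 of the corneal epithelium marker genes (Krt12, Pax6, Aldh3a1, Tkt, Slurp1 and Upk1b) were present in every library and lower in KO, with a summed level of 88682 to 92980 TPM in WT and 12602 to 15631 TPM in KO.

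Ribosome assembly starts in the nucleolus, where RNA polymerase I transcribes a long precursor of the 18S, 5.8S and 28S rRNAs. The UTP complexes and the U3 snoRNP fold the precursor as it emerges, box C/D and box H/ACA snoRNPs modify its bases and riboses, and nucleases cut it. The small and large subunit precursors then mature apart and are exported, and late factors proof-read them in the cytoplasm. In stratified epithelia such as the cornea and the epidermis, the dividing basal cells supply the layers above them and need a steady supply of ribosomes.

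Members were called higher in KO more often, and lower less often, than the genes of the whole table, and most rises were modest. Of the 179 members with enough counts to test, 106 (59.2%) were higher and 17 (9.50%) lower in KO at an adjusted p of 0.05, and 56 passed in neither direction (edgeR quasi-likelihood test, adjusted over all 13305 genes tested). Over all genes tested, 31.8% were higher and 30.2% lower. The median log2 fold change was 0.47 over the members, a 1.38-fold rise, and 0.01 over all genes tested. A positive log2 fold change was seen in 143 of the 179 members and in 6700 of the 13305 genes. In 116 members (64.8%) all 3 KO values lay above all 3 WT values, against 34.7% of all genes, and in 22 (12.3%) all KO values lay below, against 33.9%.

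Large rises made up a similar share of the members and of all genes. The study called genes at an adjusted p no greater than 0.001 and a change of 2-fold or more. By that rule 21 members (11.7%) were higher in KO, and 11.6% of all genes were. In the other direction 3 members (1.68%) passed, against 8.24% of all genes. Of the 106 members called higher, 84 rose by less than 2-fold. The other 20.8% reached a log2 fold change of 1, against 50.1% of all genes called higher. The number higher at the study threshold fell to 13 without WT replicate 1 and likewise without WT replicate 3, and the number lower fell to 1 without KO replicate 2. In bulk samples a change in the number of cells of a type and a change in RNA per cell cannot be told apart.

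Calls differed between members with a role in assembly and the others, a split that was not tested. Among the 144 tested members of the 12 role groups, 90 (62.5%) were higher and 6 (4.17%) lower, with a median log2 fold change of 0.49. Among the 35 tested members in no role group, 16 (45.7%) were higher and 11 (31.4%) lower, and the median was 0.15. The background for each group count here and below is 31.8% higher and 30.2% lower over all genes tested. The plot of fold changes by role shows the box H/ACA, nucleolar large subunit and box C/D groups with the highest medians among groups of more than 1 tested member (0.86, 0.67 and 0.64).

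**Figure D1:**
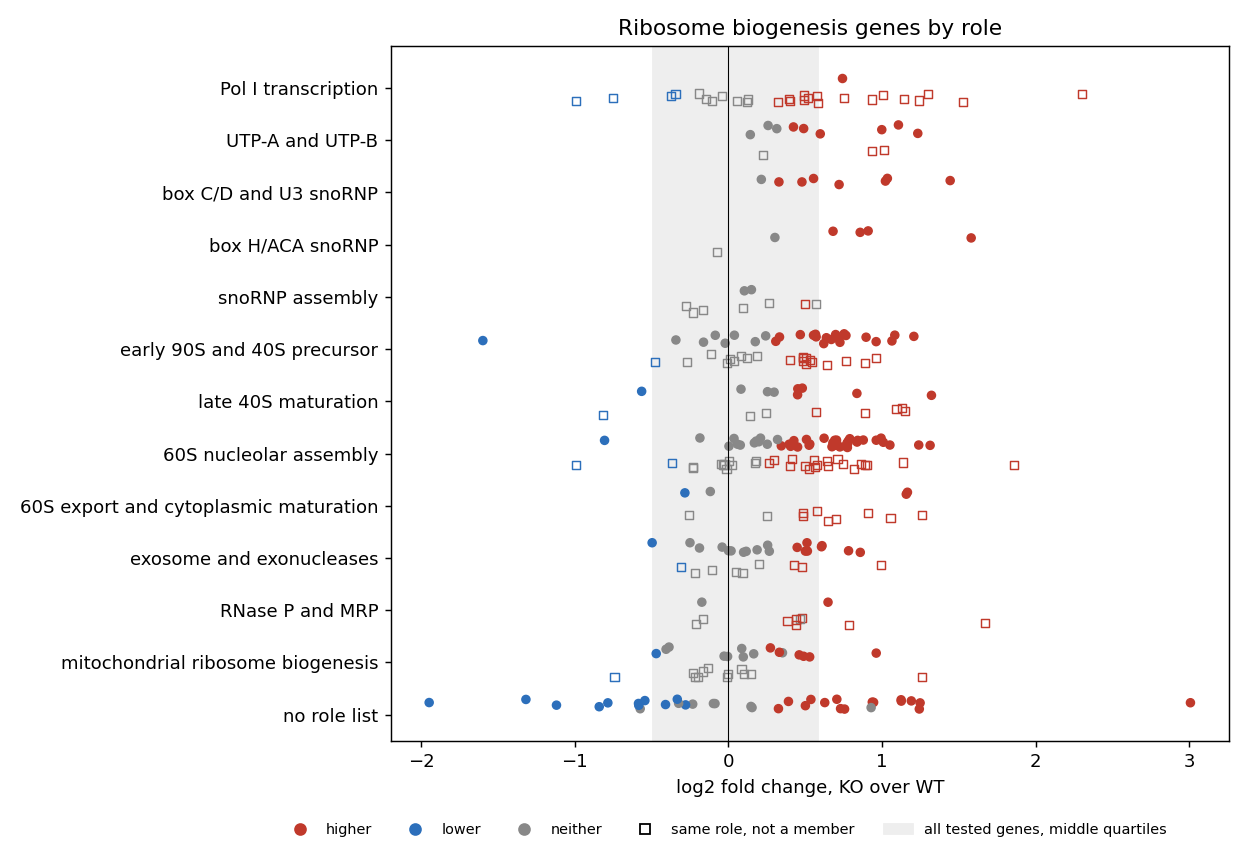
Log2 fold change (KO over WT) of each tested gene by role group, with filled circles for members and open squares for genes of the same role that the rule does not take. Red and blue mark genes higher or lower at an adjusted p of 0.05, and the grey band spans the middle quartiles of all tested genes (-0.49 to 0.58). Most groups lie right of 0, with medians from 0.13 for snoRNP assembly to 0.86 for the box H/ACA snoRNP.

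The start sites of the members were searched for the binding letters of Myc, since the gene of this known activator of ribosome production rose in KO, and for those of NF-κB, since Rela was removed. The windows were the RefSeq sequences from 250 bases before to 50 after each gene's start (GRCm38.p6), which 142 members had, 139 of them tested. The E-box CACGTG, which reads the same on both strands, occurred in 25 of these 139 genes (18.0%). Its share was 11.4% of the 10572 tested genes with a window and 10.2% of all 13967 genes of the table with one. The E-box occurred in 15 of 85 members called higher (17.6%), 8 of 39 that did not pass (20.5%) and 2 of 15 called lower (13.3%). The median log2 fold change was 0.42 for members with an E-box and 0.49 for those without.

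The sites below show the E-box (capitals) in its surroundings on the gene's own strand, for members from each outcome. They were chosen after the values were seen, to set sites of members that rose beside those of a member that fell and one that did not pass.
Tsr1, chr11:74898092-74898121, plus strand: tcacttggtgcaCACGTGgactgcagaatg
Utp4, chr8:106893643-106893672, plus strand: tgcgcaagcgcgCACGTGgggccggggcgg
Pes1, chr11:3963965-3963994, plus strand: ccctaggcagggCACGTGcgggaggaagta
Rrn3, chr16:13780639-13780668, plus strand: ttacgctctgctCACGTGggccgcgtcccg
Rrn3, chr16:13780472-13780501, plus strand: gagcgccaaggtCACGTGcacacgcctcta
Utp14b, chr1:78658365-78658394, plus strand: cgcgggcgcgggCACGTGggtggggtcgtc
Utp20, chr10:88826765-88826789, minus strand: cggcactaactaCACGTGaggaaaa
In Tsr1, Utp4 and Pes1, which rose by 1.32, 1.23 and 0.77 on the log2 scale, the E-box began 25, 16 and 3 bases into the transcript. Rrn3 (0.74) held a pair of E-boxes, 48 and 215 bases before the start. Utp14b, which fell, held one 63 bases before the start, and Utp20, which did not pass, held one 38 bases into the transcript. These positions are counted from RefSeq starts, which can differ from the deposited gene starts. The Utp14b site lies inside the deposited span of that gene, which begins at position 78657825. The Tsr1 and Pes1 sites lie further into the deposited spans of those genes, which begin at positions 74896652 and 3963808, than into the RefSeq transcripts. E-boxes were thus found in members of each outcome.

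The NF-κB letters, GGG and CC with 5 bases of any kind between them, were searched on both strands. They occurred in 88 of the 139 tested members with a window (63.3%), against 71.3% of all tested genes with a window. Over all 13967 genes of the table with a window the share was 67.3%. The letters were found in 51 of 85 members called higher, 25 of 39 that did not pass and 12 of 15 called lower. The pattern is short and rich in G and C, and the median GC content of the windows was 60.3% both for the tested members and for all tested genes. The 250 bases before the start are shown for Nhp2, the member of the role groups with the largest rise, and for Nop58, with matches in capitals. Neither window holds an E-box.
Nhp2, chr11:51619523-51619772, plus strand: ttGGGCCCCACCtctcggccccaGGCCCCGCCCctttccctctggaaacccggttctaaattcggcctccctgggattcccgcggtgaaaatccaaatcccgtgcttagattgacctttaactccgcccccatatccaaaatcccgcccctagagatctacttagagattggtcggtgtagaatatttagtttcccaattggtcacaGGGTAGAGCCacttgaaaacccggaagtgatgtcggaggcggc
Nop58, chr1:59684756-59685005, plus strand: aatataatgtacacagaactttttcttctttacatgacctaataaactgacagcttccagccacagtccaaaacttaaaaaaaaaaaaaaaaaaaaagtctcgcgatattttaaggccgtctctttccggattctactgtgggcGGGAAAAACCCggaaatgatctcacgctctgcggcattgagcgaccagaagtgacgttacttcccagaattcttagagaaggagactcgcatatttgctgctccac
The Nhp2 stretch holds 3 matches, and in Nop58 the 2 matches overlap. A match of letters is a description of the sequence and does not show that a factor binds there.

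Transcription of rRNA was represented among the members by Rrn3 alone, the factor that makes RNA polymerase I competent to start. Rrn3 had 40.4, 40.1 and 40.2 CPM in WT and 60.3, 76.6 and 64.6 CPM in KO. The WT values were nearly equal, and every KO value was higher (log2 fold change 0.74, SE 0.106, adjusted p = 0.000432, edgeR). Of 27 further genes of this step that the rule does not take, 16 were higher and 4 lower, with a median of 0.40. Npm1, an abundant nucleolar chaperone, showed the largest rise of the group, from 97.6, 132 and 86.8 CPM to 447, 589 and 527 CPM (log2 fold change 2.30, SE 0.179, adjusted p = 1.71e-05). Myc, a transcription factor known to drive ribosome production, rose from 26.5, 23.6 and 30.6 CPM to 89.1, 65.9 and 78.3 CPM (log2 fold change 1.53, SE 0.141, adjusted p = 4.21e-05). Ncl, which encodes nucleolin, rose by 1.30 on the log2 scale and Nolc1, a snoRNP chaperone, by 0.93.

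The subunit genes of the polymerase itself had a median log2 fold change of 0.49. Their list takes in Polr2e, Polr2f, Polr2h, Polr2k and Polr2l, whose symbols name RNA polymerase II, so it is not particular to polymerase I. Among the 13 subunit genes 11 were higher, including the catalytic subunits Polr1a (log2 fold change 0.59, SE 0.147, adjusted p = 0.00826) and Polr1b (0.40, SE 0.107, adjusted p = 0.0111). With limma on log2(FPKM + 1), Polr1b had a log2 fold change of 0.24 and an adjusted p of 0.0798. Ubtf, which binds the rRNA gene promoter, did not pass, with 108, 109 and 108 CPM in WT and 123, 111 and 119 CPM in KO, but was called higher with the gene length correction (0.27, adjusted p = 0.0153). Of the 4 genes of this step called lower, Cavin1 had the largest fall (log2 fold change -0.99). Ttf1, which ends polymerase I transcripts, fell by 0.75 on the log2 scale. Tcof1, a nucleolar scaffold, was called lower by a small margin (-0.37, adjusted p = 0.0496, edgeR), and its groups overlapped.

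The UTP complexes are the first large assemblies on the nascent precursor, and UTP-A also takes part in its transcription. All 9 members of these complexes had positive log2 fold changes, and 6 of them passed the test. Utp4, a UTP-A subunit, had 16.5, 18.3 and 17.9 CPM in WT and 32.5, 47.9 and 43.5 CPM in KO. Its KO values spread over a wider range than its WT values and did not meet them (log2 fold change 1.23, SE 0.149, adjusted p = 0.000173). The 5 UTP-A members (Utp4, Wdr43, Wdr75, Utp15 and Nol11) all passed, with log2 fold changes of 0.42 to 1.23, and so did Heatr1, the UTP-A scaffold outside the rule, at 0.93. Of the 4 UTP-B members only Utp18 passed. Wdr36, the UTP subunit with the highest level per length (16.4 FPKM, mean of 6 libraries), overlapped between groups, with 42.8, 52.9 and 40.9 CPM in WT and 48.5, 59.4 and 55.6 CPM in KO (log2 fold change 0.26, adjusted p = 0.107). Wdr36 was called higher without WT replicate 2 (0.39, adjusted p = 0.0267) and with the gene length correction (0.41, adjusted p = 0.0228). This split into UTP-A and UTP-B was made after the values were seen, and the difference between the complexes was not tested.

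The box C/D snoRNPs guide ribose methylation, and U3, a box C/D particle, guides cleavage. Of 8 tested members 7 were higher (87.5%, against 31.8% of all genes tested). In all 8 every KO value lay above every WT value, which held for 34.7% of all genes tested. The 4 core proteins of the box C/D particle all rose. Nop56 had 49.6, 55.9 and 48.8 CPM in WT and 85.9, 122 and 105 CPM in KO (log2 fold change 1.02, SE 0.135, adjusted p = 0.000274). Its partner Nop58 had 32.3, 39.8 and 37.5 CPM against 65.1, 89.1 and 70.4 CPM (log2 fold change 1.04, SE 0.138, adjusted p = 0.000299). Both genes rose about 2-fold and did not overlap between groups. The methyltransferase gene Fbl, which encodes fibrillarin and had the highest level of the group per length (52.0 FPKM), rose less, from 48.1, 55.4 and 42.2 CPM to 76.9, 63.3 and 73.7 CPM. The log2 fold change of Fbl was 0.55 (SE 0.124, adjusted p = 0.00467), and with a correction for gene length 0.23 (adjusted p = 0.172).

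Mphosph10, a protein of the U3 particle, showed the largest rise of this group, from 11.3, 9.26 and 11.3 CPM to 24.4, 32.2 and 29.9 CPM (log2 fold change 1.44, SE 0.142, adjusted p = 5.75e-05). Its partners Imp3 and Imp4 also rose, by 0.72 and 0.33 on the log2 scale. The U3 protein gene Rrp9 did not pass (0.21, adjusted p = 0.137). The fibrillarin-like gene Fbll1 had too few counts to test.

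The box H/ACA snoRNPs convert uridine to pseudouridine, and their median was the highest of any group with at least 2 members (0.86). All 4 core proteins rose. Nhp2 had 34.5, 35.0 and 38.0 CPM in WT and 95.9, 130 and 95.9 CPM in KO. This was a 2.99-fold rise (log2 fold change 1.58, SE 0.134, adjusted p = 2.74e-05), the largest of any member with a role in ribosome assembly, and in KO replicate 2 it was higher than in the other KO libraries. Dkc1, the pseudouridine synthase, had 21.9, 24.1 and 21.7 CPM in WT and 35.8, 47.9 and 43.5 CPM in KO (log2 fold change 0.91, SE 0.124, adjusted p = 0.000331). Nop10 and Gar1 rose by 0.86 and 0.68 on the log2 scale. Naf1, which assembles the particle and leaves it before it matures, did not pass (0.30, adjusted p = 0.0579).

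Factors that assemble snoRNPs rather than form part of them gave few calls. Neither of the 2 members passed, with Pih1d1 at 15.2, 19.1 and 15.5 CPM in WT and 15.8, 18.2 and 19.6 CPM in KO. Of 7 further genes outside the rule, 1, Zfp330, was higher, and Ruvbl1 and Ruvbl2, the ATPases of the assembly complex, had log2 fold changes of -0.28 and 0.10 and did not pass.

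**Figure D2:**
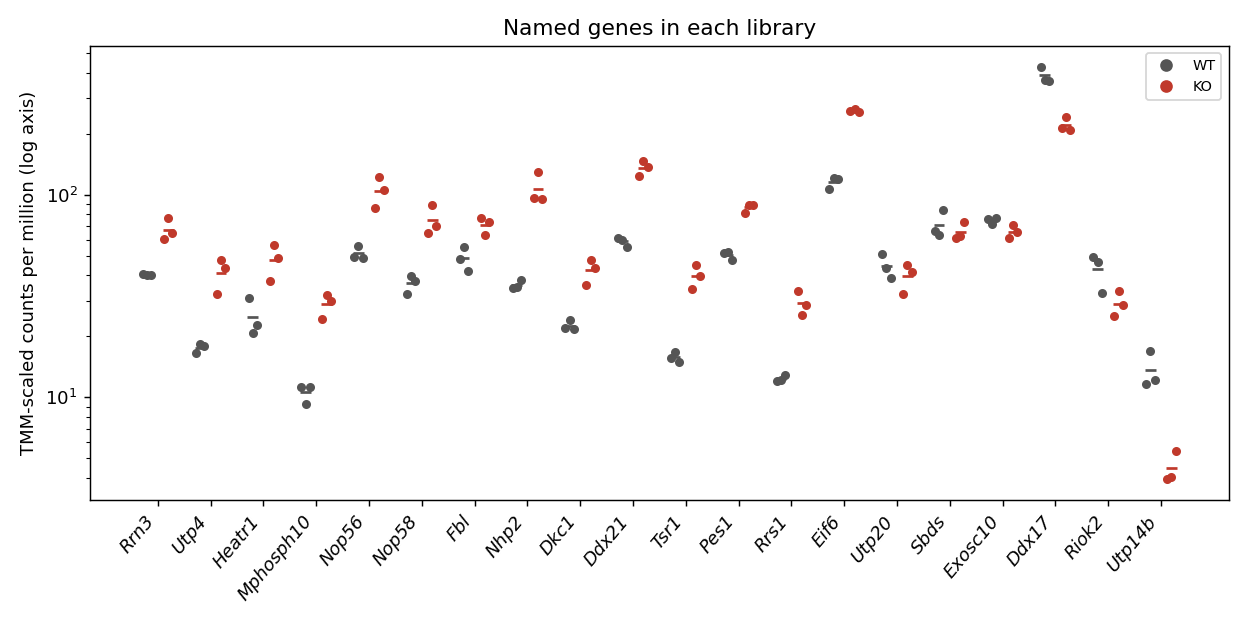
CPM of 20 genes in each library on a log axis, grey for WT and red for KO, with a dot per library and a line at the group mean of 3. KO dots lie above WT dots for the first 14 genes, from Rrn3 to Eif6, overlap with them for Utp20 and Sbds, and lie below for Exosc10, Ddx17 and Utp14b.

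The largest group of small subunit factors acts on the early 90S particle. Of its 27 members 19 were higher and 1 lower, with a median of 0.57. Ddx21, an RNA helicase of the nucleolus, had 61.6, 59.8 and 55.5 CPM in WT and 124, 147 and 138 CPM in KO (log2 fold change 1.21, SE 0.0949, adjusted p = 1.79e-05). Emg1, a methyltransferase of 18S rRNA, rose by 1.08 and Lyar by 1.06 on the log2 scale. Mybbp1a, a nucleolar protein first found as a partner of Myb, rose from 83.5, 92.2 and 85.5 CPM to 159, 156 and 171 CPM (log2 fold change 0.90). These 4 genes were each at least 1.86-fold higher in KO. Utp11, with the highest level of the group per length (34.8 FPKM), had a log2 fold change of 0.55 (adjusted p = 0.00169), which became -0.017 (adjusted p = 0.88) with the gene length correction. Utp20, a large scaffold of the 90S particle, overlapped between groups at 51.2, 43.5 and 38.7 CPM in WT and 32.5, 45.1 and 41.7 CPM in KO, and did not pass (-0.16, adjusted p = 0.374).

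The member of this group that fell was Utp14b. It had 11.6, 17.0 and 12.1 CPM in WT and 3.95, 4.06 and 5.43 CPM in KO, 33.0% of that in WT (log2 fold change -1.60, SE 0.202, adjusted p = 0.00022). Its parent gene Utp14a, which encodes the small subunit factor used in most tissues, went the other way, from 30.4, 29.7 and 32.2 CPM to 40.6, 51.8 and 49.7 CPM (log2 fold change 0.62, SE 0.113, adjusted p = 0.00154). In the GRCm38 coordinates of the table, Utp14b (chromosome 1, positions 78657825 to 78667601) lies within Acsl3 (positions 78657825 to 78707743), a fatty acid activating enzyme gene. Acsl3 also fell, from 46.3, 70.5 and 51.4 CPM to 25.4, 30.0 and 34.7 CPM (log2 fold change -0.90, SE 0.177, adjusted p = 0.00237). Utp14a, Utp14b and Acsl3 all had fractional estimated counts, which arise where reads match several genes, so the level of Utp14b is uncertain.

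Late small subunit factors act around export and in the cytoplasm. Of 9 members 5 were higher and 1 lower, with a median of 0.45. Tsr1, a GTPase-like factor that keeps the pre-40S particle inactive, had 15.7, 16.8 and 15.0 CPM in WT and 34.1, 45.0 and 39.6 CPM in KO (log2 fold change 1.32, SE 0.124, adjusted p = 4.6e-05). Outside the rule, the nuclease gene Nob1, which makes the last cut of 18S rRNA, rose from 17.2, 17.4 and 17.9 CPM to 35.6, 38.1 and 40.9 CPM (log2 fold change 1.13, SE 0.0966, adjusted p = 2.84e-05). The 3 RIO kinases of this step each differed in their call. Riok1 rose (0.45, adjusted p = 0.00779), Riok3 did not pass (0.08, adjusted p = 0.514), and Riok2 was lower (-0.56, SE 0.17, adjusted p = 0.019). The Riok2 values of the groups overlapped, with 49.6, 46.4 and 32.9 CPM in WT and 25.2, 33.5 and 28.5 CPM in KO. Its adjusted p was 0.0763 without WT replicate 1, 0.0546 without WT replicate 2, 0.0635 without KO replicate 1, 0.0534 without KO replicate 3 and 0.0643 with the gene length correction.

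Nucleolar assembly of the large subunit formed the biggest group. Of its 43 members 31 were higher and 1 lower, and 41 had a positive log2 fold change, with a median of 0.67. The complex of Pes1, Bop1 and Wdr12, needed to process the 5.8S and 28S rRNAs, rose as a whole. Pes1 had 51.9, 52.4 and 47.7 CPM in WT and 81.3, 89.2 and 89.5 CPM in KO (log2 fold change 0.77, SE 0.0871, adjusted p = 0.000115). Bop1 rose by 0.43 and Wdr12 by 0.99 on the log2 scale, and the KO values of Wdr12 were the more spread, at 12.2, 20.3 and 15.0 CPM. Rrs1 and Rpf2, which bring the 5S rRNA into the particle, rose by 1.24 and 0.68. Rrp15 showed the largest rise of the group, from 5.13, 5.12 and 4.12 CPM to 10.3, 13.6 and 11.8 CPM (log2 fold change 1.31, SE 0.163, adjusted p = 0.0002).

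Within the same group, the gene with the highest level per length did not pass. Nop53 (109 FPKM) had 158, 161 and 161 CPM in WT and 192, 173 and 175 CPM in KO (log2 fold change 0.17, adjusted p = 0.115). Its KO values lay just above its WT values, and the gene length correction turned the sign (-0.0199, adjusted p = 0.853). Ddx17, an RNA helicase that also acts in splicing and microRNA processing, was the member that fell. It had 430, 371 and 365 CPM in WT and 214, 243 and 209 CPM in KO (log2 fold change -0.81, SE 0.11, adjusted p = 0.000326). Of 31 further genes of this step outside the rule, 19 were higher and 2 lower. Gnl3, a nucleolar GTPase known as nucleostemin, rose from 12.6, 14.6 and 15.9 CPM to 43.6, 59.4 and 52.9 CPM (log2 fold change 1.86, SE 0.144, adjusted p = 1.68e-05).

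Export and cytoplasmic maturation of the large subunit held 4 members that went in different directions. Eif6, which keeps the large subunit from joining the small one too early, had 106, 120 and 120 CPM in WT and 259, 265 and 255 CPM in KO. The KO libraries agreed closely (260 ± 4.75 CPM, mean ± SD, n = 3), and the rise was 2.24-fold (log2 fold change 1.17, SE 0.0907, adjusted p = 1.71e-05). Mrto4, which holds the place of the ribosomal stalk, rose by 1.16 on the log2 scale. Sbds, which helps to release Eif6, did not pass, with 66.4, 63.4 and 83.9 CPM in WT and 61.3, 62.5 and 73.2 CPM in KO. With the gene length correction Sbds was lower (-0.34, adjusted p = 0.0377). Xpo1, the nuclear export receptor used by both subunits, was lower, with 122, 138 and 127 CPM in WT and 94.7, 112 and 111 CPM in KO (log2 fold change -0.28, SE 0.0983, adjusted p = 0.0338). The call on Xpo1 was lost without WT replicate 2 (adjusted p = 0.127), WT replicate 3 (0.0803), KO replicate 1 (0.0734) or KO replicate 3 (0.0524), with the gene length correction (0.414), and with a mean count filter of 50 (0.0516). Of 10 further genes of this step, 8 were higher and none lower, among them the export adaptor gene Nmd3 (1.26) and Efl1, the GTPase that works with Sbds (0.65).

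The exosome trims the 3′ end of 5.8S rRNA and degrades the spacers that processing removes. Of 19 members of the exosome and exonuclease group 8 (42.1%) were higher and 1 (5.26%) lower, with a median of 0.26. Over all genes tested 31.8% were higher and 30.2% lower. Among the 10 exosome genes named Exosc1 to Exosc10, 5 rose. The ring subunit gene Exosc6 rose from 6.73, 7.35 and 8.57 CPM to 13.9, 15.0 and 12.1 CPM (log2 fold change 0.86, SE 0.145, adjusted p = 0.00104). Exosc10, the nuclear 3′ exonuclease, had 75.9, 72.2 and 77.0 CPM in WT and 61.1, 70.9 and 65.6 CPM in KO and did not pass (-0.19, adjusted p = 0.0962). With library totals only, Exosc10 was lower (-0.28, adjusted p = 0.0307), and it was also lower with limma on log2(FPKM + 1) (adjusted p = 0.0266) and log2(FPKM + 0.1) (adjusted p = 0.026). Mphosph6, an exosome cofactor with the highest level of the group per length (30.5 FPKM), rose by 0.50 (adjusted p = 0.0122), or by 0.08 (adjusted p = 0.596) with the gene length correction. Tent4b, which adds short tails to exosome targets, fell from 56.6, 53.0 and 59.1 CPM to 37.8, 41.5 and 40.3 CPM (log2 fold change -0.50, SE 0.0885, adjusted p = 0.00142). Xrn2, the nuclear 5′ exonuclease outside the rule, rose by 0.48 (SE 0.127, adjusted p = 0.0105).

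RNase MRP cuts the precursor between the small and large subunit rRNAs and shares proteins with RNase P. Of 2 members, Pop5 rose from 9.80, 10.1 and 11.5 CPM to 14.4, 18.1 and 16.7 CPM (log2 fold change 0.65, adjusted p = 0.00268), or by 0.13 (adjusted p = 0.332) with the gene length correction. Pop4 overlapped between groups, at 29.1, 33.3 and 35.8 CPM in WT and 28.7, 29.6 and 28.9 CPM in KO, and did not pass in the main test (-0.17, adjusted p = 0.179). Pop4 was lower with the gene length correction (-0.46, adjusted p = 0.0026) and with limma on log2(FPKM + 1) (-0.25, adjusted p = 0.035). Of 9 further protein genes of these enzymes 6 were higher.

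Mitochondria assemble their own ribosomes with separate factors, and these gave a mixed picture. Of 15 members 6 were higher and 1 lower, with a median of 0.17. Mrm3, which methylates mitochondrial 16S rRNA, rose from 2.79, 2.93 and 2.56 CPM to 4.51, 5.67 and 5.98 CPM (log2 fold change 0.96, SE 0.188, adjusted p = 0.0023). Eral1, a chaperone of mitochondrial 12S rRNA, fell from 17.4, 17.5 and 18.1 CPM to 12.8, 13.2 and 12.2 CPM (log2 fold change -0.47, SE 0.101, adjusted p = 0.00378). Neither gene overlapped between groups. Rbfa, the member with the highest level per length (14.4 FPKM), was called higher by a small margin (0.27, adjusted p = 0.0471). That call was lost under 12 of the 17 alternatives, among them each single library left out other than KO replicate 1, with adjusted p-values of 0.0628 to 0.142 for those 5. Of 12 further genes of this step outside the rule, 1 was higher and 1 lower.

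The members in no role group included some of the largest changes. Kif21b rose from 1.15, 0.837 and 1.70 CPM to 11.6, 7.67 and 10.4 CPM (log2 fold change 3.01, SE 0.281, adjusted p = 4.42e-05), the largest of any member and from a low level. Gemin4, a protein of the complex that assembles spliceosomal snRNPs, rose from 32.7, 31.2 and 30.7 CPM to 87.4, 60.8 and 75.5 CPM (log2 fold change 1.24, SE 0.134, adjusted p = 9.04e-05). It overlaps Glod4, a further member, which was lower in KO (-0.28, adjusted p = 0.016). Npm3, a relative of Npm1, rose by 1.19 on the log2 scale. Chd3, a chromatin remodeller, fell from 198, 171 and 202 CPM to 83.4, 73.4 and 72.5 CPM (log2 fold change -1.32, SE 0.102, adjusted p = 1.7e-05). The groups did not overlap for Kif21b, Gemin4, Npm3 or Chd3. LOC108167321 had the lowest log2 fold change of any member (-1.95), from 2.80 to 32.8 counts per library. In all, 11 of the 17 members called lower were in no role group. Those 11 were 31.4% of the tested members in no role group, near the 30.2% of all genes tested.

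The 8 members without enough counts to test were Fbll1, Tchhl1, Gm48909, Gm29738, Gm8994, Gm6637, LOC108167922 and LOC100862433. None of them exceeded 20.3 counts in any library.

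The median of the members was raised in each KO library, and to a different extent. Relative to the WT mean, the median log2 level of the tested members was 0.34, 0.53 and 0.46 in KO replicates 1, 2 and 3, and between -0.01 and 0.00 in the WT libraries. Over all tested genes these medians lay between -0.01 and 0.00 in every library. Of the 106 members called higher, 82 (77.4%) had their lowest KO value in replicate 1 and 73 (68.9%) their highest in replicate 2. Among all genes called higher these shares were 41.5% and 39.4%. The epidermal markers took 2.28% of the counts in KO replicate 1, against 1.14% and 1.41% in the other KO libraries. Krt1, Lor, Flg and Krt10 were highest in KO replicate 1. Krtdap was highest in KO replicate 2, at 1417 CPM against 1251 in replicate 1 and 1157 in replicate 3. A link between these markers and the members was not tested. The median of the members without KO replicate 2 was 0.41.

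**Figure D3:**
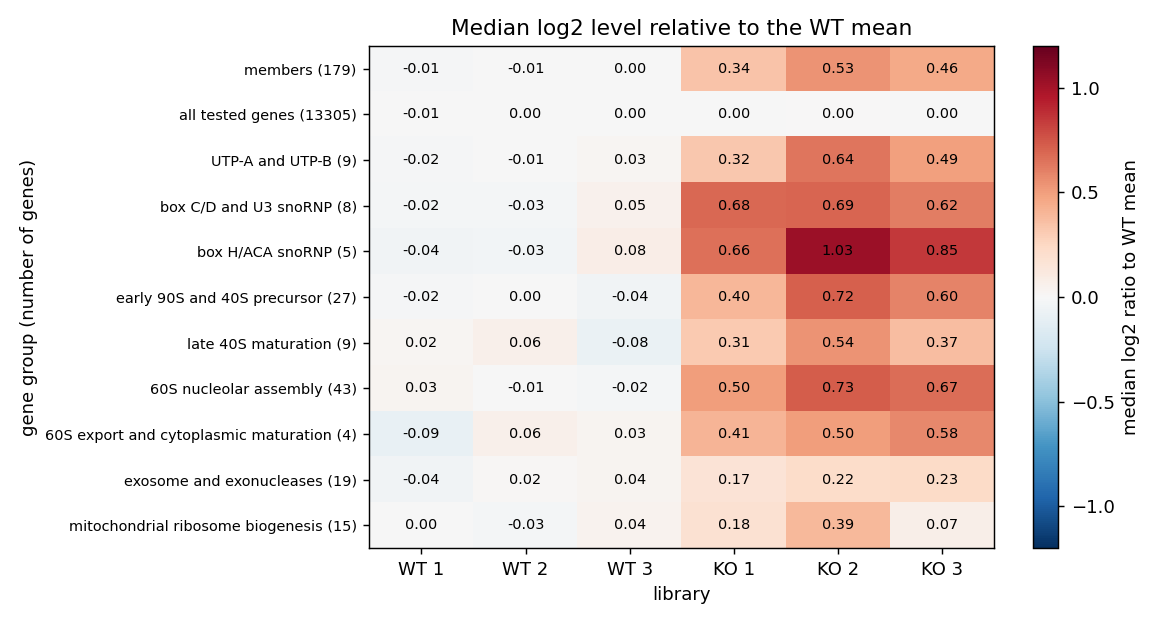
Median log2 level relative to the WT mean in each library (columns) for all tested members, all tested genes and the role groups with at least 4 tested members (rows), coloured from blue (lower) to red (higher) with the values printed. All KO cells of the member groups are positive, from 0.07 for the mitochondrial group in KO replicate 3 to 1.03 for the box H/ACA group in KO replicate 2, and the row of all tested genes stays within 0.01 of 0.

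The share of the library taken by the members also rose. Without 4 copies of ribosomal protein genes, the members took 0.641%, 0.627% and 0.612% of the counts in WT and 0.692%, 0.792% and 0.740% in KO, which is 1.18 times as much. The TPM scale divides the counts of each gene by its length. On that scale the summed levels were 5781, 5690 and 5449 in WT and 5720, 6417 and 5986 in KO, and the groups overlapped. One of the copies, LOC105244208, listed as a ribosomal protein S6 gene, was the member with the highest level (1246 FPKM, mean of 6 libraries). It rose from 625, 765 and 663 CPM to 1281, 1314 and 1333 CPM (log2 fold change 0.94), and its counts were not whole numbers, so they may include reads of Rps6.

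Cytosolic ribosomal protein genes were nearly all called higher, and mitochondrial ones for the larger part. Of 87 tested cytosolic ribosomal protein genes 84 (96.6%) were higher and none lower, with a median of 0.78. These genes were taken by symbol and include Rps19bp1 (0.54), also counted among the early small subunit genes outside the rule. Of 78 mitochondrial ribosomal protein genes 58 (74.4%) were higher and none lower, with a median of 0.48. The middle quartiles were 0.63 to 0.91 for cytosolic ribosomal proteins and 0.09 to 0.76 for the members. The differences between these groups were not tested. Cytosolic ribosomal protein genes are short, with a median effective length of 660 bases against 2485 for the members and 2853 for all tested genes.

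**Figure D4:**
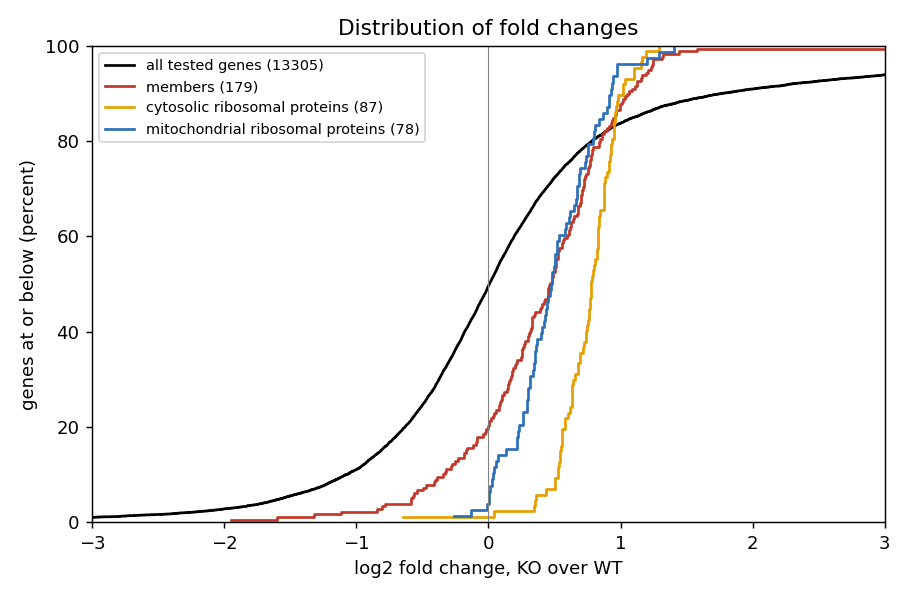
Cumulative percent of genes (vertical axis) at or below each log2 fold change, KO over WT (horizontal axis), for the 179 tested members, 87 cytosolic and 78 mitochondrial ribosomal protein genes and all 13305 tested genes. The member curve crosses 50% at 0.47 and the cytosolic curve at 0.78, while the curve of all genes, which extends beyond the axis at both ends, crosses near 0.01.

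Of the 138 genes in the same role groups that the rule does not take, 73 (52.9%) were higher and 10 (7.25%) lower, with a median of 0.40. These shares were set against the same background of 31.8% and 30.2% as the members. They held the genes with the largest rises of the pathway, Npm1 and Gnl3, and also Zfp593, a large subunit factor, which fell by 0.99 on the log2 scale, and Prkdc, the DNA repair kinase listed with the late small subunit factors, which fell by 0.81.

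Cell division and cell identity markers moved with genotype beside the members. Of 15 proliferation genes 8 were higher and none lower. Mki67, which marks cycling cells, had 112, 138 and 113 CPM in WT and 239, 267 and 244 CPM in KO (log2 fold change 1.05, adjusted p = 8.5e-05). The genes of mitosis and its entry rose, such as Ccnb1 (1.66) and Cdk1 (1.41), whereas the replication genes Mcm2, Mcm3, Mcm5, Mcm6, Pcna, Rrm2 and Tyms did not pass. The summed level of the proliferation genes was 694 TPM in WT replicate 2, above the 486 to 583 TPM of the KO libraries, and 451 and 383 TPM in the other WT libraries. Mcm2, Mcm3, Mcm5, Mcm6, Pcna and Rrm2 were highest in WT replicate 2, such as Mcm5 at 72.5 CPM against 35.5 and 26.1 CPM in the other WT libraries. In the 8 genes called higher every KO value lay above every WT value, such as Ccnb1 at 18.5 CPM in WT replicate 2 and 48.6 to 58.9 CPM in KO. A link between the proliferation genes and the members was not tested. Without WT replicate 2, 101 members were higher and 13 lower.

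All 5 tested epidermal markers (Krt1, Krt10, Lor, Flg and Krtdap) were higher, and the summed level of the list of 6 went from 14.3 to 20.8 TPM in WT to 14000 to 21940 TPM in KO. Krt2 had 0 counts in WT and 1 to 3 in KO. Of 5 goblet cell markers 3 were higher (2.90 to 5.26 TPM summed in WT, 10.6 to 32.6 in KO), and the defining mucin gene Muc5ac had 0 counts in each WT library and 141, 15 and 214 in KO. Of 7 immune markers 4 were higher, Ptprc (log2 fold change 3.69), Csf1r (3.67), Lyz2 (7.11) and Cd74 (3.01). Itgam was lower (-0.60), Cd68 did not pass (0.09) and Cd3e had too few counts to test. Their summed level was 178 to 205 TPM in WT and 187 to 252 TPM in KO. Itgam had the highest level of these markers in WT (58.0 FPKM) and weighs most in the WT sum. Of 8 stromal and vessel markers 5 were higher, at 0.86 to 2.27 TPM summed in WT and 10.8 to 19.5 TPM in KO. Kdr and Lum had 0 counts in every WT library and at most 4 in KO. The part of cell division, epidermal change and other cell types in the rise of the members was not tested.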

How the data were processed

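RNA from the separated corneal epithelium of 3 WT and 3 KO mice, described by the study as independent biological samples, was sequenced as single-end 50-base reads after rRNA depletion, while the labels name an Illumina kit. The authors filtered reads with SOAPnuke and, per the labels, aligned them with Bowtie2 2.2.5 and estimated gene levels with RSEM 1.2.12. The authors deposited expected counts, FPKM and TPM per library, and log2 fold changes, p-values, q-values and group averages of their own comparison, which were not used. RSEM splits reads that match several genes, and 79 members had a count more than 0.05 from a whole number in at least 1 library. The labels name build mm9 and the coordinates are those of GRCm38. The deposited strand was not used, because 2062 genes on its plus strand are on the minus strand in RefSeq.

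Expected counts were rounded and tested with edgeR 4.0.16 (R 4.3.3; TMM, filterByExpr, glmQLFit, glmQLFTest, genotype only) over 13305 genes with Benjamini-Hochberg adjustment. The SE was taken as the size of the log2 fold change over the root of the F statistic. FPKM was used to compare levels between genes. The level of 3 counts given for each library covers counting error only. Library medians used log2(CPM + 0.1). The members, role groups and marker lists were chosen with earlier results of these data known, so no group was tested as a set. Named genes were Rela, the up to 10 largest rises and 10 largest falls at the study threshold without overlap and with a mean count of at least 100, the highest FPKM and the largest called rise and fall of each role group, and a fixed list of assembly factors. Other genes named were chosen after their values were seen, among them Acsl3, Gnl3, Nmd3 and the genes that fell. Of the symbols in the role groups, 3 were not found in the table. Replicate numbers occur in both genotypes but the animals differ. Alternatives were DESeq2 1.42.0, other scalings and filters, limma 3.58.1 on log2(FPKM + 1) and log2(FPKM + 0.1), corrections for gene length and, added after seeing the data, GC content, a replicate block and leaving out each library. The scripts were tested on simulated data. Tables were handled with Python 3.11.15 and pandas 2.3.3.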

Additional observations from a re-analysis of the deposited data

How the results depend on the processing

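Over 17 alternative fits, between 94 and 111 members were higher in KO and between 12 and 24 lower, each within 1.5 times the 106 and 17 given above. In total 76 members were called higher and 10 lower in the main fit and in every alternative. There was 1 member called higher in some fit and lower in another. The median log2 fold change of the members remained positive. It was 0.37 with library totals only, where the median of all genes was lower too, at -0.09 against 0.01 in the main fit. With limma on log2(FPKM + 1) it was 0.34, and with the gene length correction 0.37. The size of the members' median thus depends on the setting, gene length among them. The GC content correction, added after seeing the data, gave 0.48. At the study threshold 11 members were higher with limma on log2(FPKM + 1). When each library was left out in turn, 94 to 107 members were higher and 12 to 15 lower, 13 to 25 were higher and 1 to 3 lower at the study threshold, and the median was 0.41 to 0.49. Counting role group members only, also added later, left 6 lower, 1 of them at the study threshold. Same-numbered WT and KO samples did not deviate together (correlations of 0.06, -0.02 and 0.06), and with the replicate block 103 members were higher and 16 lower.

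Of 53 named genes, 36 kept their direction and side of the threshold in every alternative run. Genes that changed sign were, apart from Utp11, ones that did not pass in the main fit. With the gene length correction Pih1d1 was at -0.30, Utp11 at -0.017, Nop53 at -0.0199 and Utp20 at 0.11. With limma Pih1d1 was at -0.0245 and -0.0262 for the larger and smaller pseudocount, and Riok3 at -0.0121 and -0.0125. Riok3 was at -0.0127 with library totals only, and Sbds ranged from -0.203 to 0.0301 when single libraries were left out. At this depth members with few counts, such as Kif21b in WT, are the least precise. With 3 samples a group, spread within a group is known only roughly.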
